A study of Mus musculus with 39 samples.

Results

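The genes described here are 42 members of the synaptic vesicle release machinery, the proteins that store, dock, prime and fuse transmitter vesicles at nerve endings. They were chosen by symbol as the synapsins, synaptophysins, synaptotagmins, SNARE proteins, RAB3 GTPases, complexins, RIM, Munc13, SV2, amphiphysin and Doc2 genes with their helpers, and were found by Ensembl identifier among the 51826 genes listed in each library. All 42 were found, and all 42 passed the filter on low counts in every comparison. In all, 37 members fall into 11 families of related genes, and Snap25, Stx1a, Rph3a, Nsf and Napb stand alone. The question addressed was which gene of each family each brain region uses, by the level of its RNA in the punch. Protein and the nerve endings themselves were not measured.

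The study sequenced polyA RNA from micropunches of the nucleus accumbens (NAc) and the basolateral amygdala (BLA) of C57BL/6J mice aged 8 to 12 weeks, to look for genes under the control of the transcription cofactor LMO4. The groups were 9 NAc libraries of Lmo4gt/+ mice (1 gene-trap allele of Lmo4), 10 NAc libraries of wild-type (WT) mice, 9 BLA libraries of Lmo4gt/+ mice and 11 BLA libraries of WT mice. By the numbers in the titles there were 20 mice, and both regions were taken from 19. The labels tie the gene trap to no cell type and give neither sex nor a batch. The BLA library of WT mouse 151 has no NAc partner, so it enters the levels and the comparison of genotypes but not the paired comparison of regions.

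A vesicle is first held in a cluster by synapsins, is brought to the active zone by RAB3 and RIM proteins, and is primed by Munc13, which lets the SNARE proteins syntaxin, SNAP25 and synaptobrevin assemble. Complexins hold the assembled complex, and a rise in calcium sensed by synaptotagmins or Doc2 proteins triggers fusion. NSF and its SNAP cofactors then take the SNARE complex apart, and amphiphysins take part in recovery of the membrane. Most of these proteins exist as several related genes, which different neuron types use in different proportions. The BLA is rich in glutamatergic projection neurons, and most NAc neurons are GABAergic medium spiny cells.

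The libraries held 21255934 to 51021670 gene counts, with a median of 29402118. Lmo4, the trapped gene, averaged 55.1 ± 9.58 CPM (a gene's count scaled to the library's summed gene counts, SD, n = 9) in NAc of Lmo4gt/+ mice against 90.0 ± 11.6 CPM (n = 10) in NAc of WT mice, and 88.5 ± 12.7 CPM (n = 9) in BLA of Lmo4gt/+ mice against 160.4 ± 9.67 CPM (n = 11) in BLA of WT mice. The medium spiny neuron marker Drd2 lay at 129 to 197 CPM in NAc of Lmo4gt/+ mice and 91.7 to 206.5 CPM in NAc of WT mice, against 0.876 to 30.3 CPM and 2.62 to 33.4 CPM in BLA of Lmo4gt/+ and WT mice. The glutamatergic marker Slc17a7 had medians of 6.73 and 13.5 CPM in NAc of Lmo4gt/+ and WT mice, against 1755 and 1751 CPM in BLA of Lmo4gt/+ and WT mice. A pair of NAc libraries stood apart, with Slc17a7 at 547 CPM in Lmo4gt/+ mouse 122 and 914 CPM in WT mouse 134. These were also the highest NAc libraries of their genotype for 21 and 24 of the 42 members. The title of NAc library 122 says mutant and its genotype field says WT, and it was kept as Lmo4gt/+ by title. The counts of members that differed between the regions are given with and without these mice, as are some single results. Other values, the family shares among them, include these libraries.

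In WT mice, 37 of the 42 members differed between NAc and BLA (two-sided edgeR quasi-likelihood test with the mouse as a block, 10 mice with both regions, Benjamini-Hochberg adjusted p under 0.05), where 59.6% of the 16887 genes tested did. Of these, 9 were higher in NAc (31.1% of all genes were) and 28 were lower (28.5% of all genes were). Past a 2-fold difference, 20 members passed (13.8% of all genes), with 5 higher in NAc (6.79%) and 15 lower (7.03%). The CPM ranges of NAc and BLA libraries did not overlap for 6 members that were higher in NAc (11.8% of all genes) and for 18 that were lower (7.86%). At an unadjusted p under 0.05, 39 members passed (63.6% of all genes) in WT mice and 40 (57.7%) in Lmo4gt/+ mice. In WT mice the median log2 fold change of NAc over BLA was -0.62 for the members and 0.04 for all genes. Without mouse 134 the count was again 37, with 20 past 2-fold. In a bulk punch, fewer cells of a type and less RNA per cell cannot be told apart.

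In Lmo4gt/+ mice, which share no library with the WT comparison, 40 members differed (52.7% of 17026 genes), 11 of them higher in NAc (26.2%) and 29 lower (26.4%). Past 2-fold, 21 members passed (15% of all genes), with 5 higher (7.41%) and 16 lower (7.64%). The CPM ranges of the regions did not overlap for 6 members that were higher in NAc (11.5% of all genes) and 20 that were lower (8.92%). All 37 members called in WT mice were called in Lmo4gt/+ mice in the same direction. Doc2b, Syt12 and Cplx3 passed in Lmo4gt/+ mice and not in WT mice, and Syn3 and Syt5 passed in neither. For 37 members the log2 fold changes of the genotypes lay within 0.25 of each other. Without mouse 122 the counts were again 40 and 21. The glutamatergic marker list (6 of 6 found) summed to 6.59 to 754 CPM in NAc of Lmo4gt/+ mice and 4.37 to 1198 CPM in NAc of WT mice, against 1863 to 2229 CPM and 1737 to 2270 CPM in BLA of Lmo4gt/+ and WT mice. The medium spiny neuron list (7 of 7) summed to 2582 to 4472 CPM and 2285 to 4715 CPM in NAc of Lmo4gt/+ and WT mice, against 213 to 717 CPM and 222 to 668 CPM in BLA of Lmo4gt/+ and WT mice. The oligodendrocyte list (6 of 6) summed to 3248 to 6239 CPM and 3804 to 7999 CPM in NAc, against 1429 to 2591 CPM and 1657 to 2394 CPM in BLA of Lmo4gt/+ and WT mice. The general neuronal list (4 of 5 found) summed to 1277 ± 188 and 1287 ± 104 CPM in NAc, against 1754 ± 114 and 1738 ± 51.8 CPM in BLA of Lmo4gt/+ and WT mice. Within it, Nefl (164 ± 50.3 CPM in NAc against 536 ± 57.9 CPM in BLA of WT mice) and Tubb3 (162 ± 19.2 against 233 ± 19.6 CPM) were lower in NAc. Eno2 (727 ± 45.6 against 739.8 ± 23.9 CPM) was lower by a small margin (log2 -0.11 ± 0.04, adjusted p = 0.0301 in edgeR), and Rbfox3 (233 ± 31.1 against 229 ± 13.3 CPM) did not pass (adjusted p = 0.479). The part of cell makeup, in neurons or glia, in the region differences of the members was not tested.

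**Figure D1:**
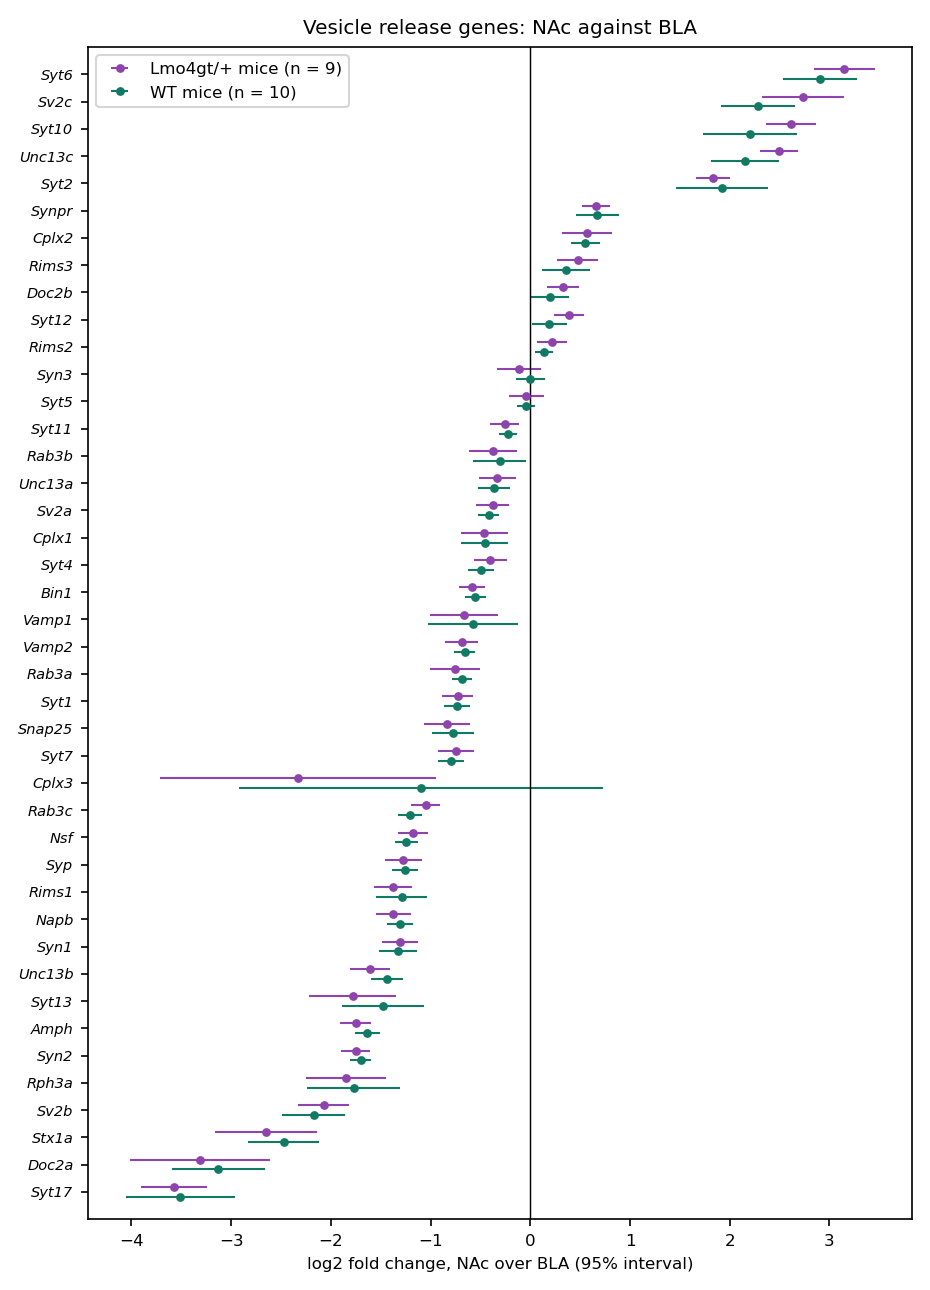
Log2 fold change of NAc over BLA for each of the 42 genes, with its 95% interval, in Lmo4gt/+ mice (n = 9) and WT mice (n = 10) from the edgeR fits with the mouse as a block. Points right of 0 are higher in NAc. Syt6, Sv2c, Syt10, Unc13c and Syt2 lie beyond 1 on the log2 scale, and most other genes lie left of 0 in both genotypes.

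The SV2 genes encode large glycoproteins of the vesicle membrane that help load and maintain the releasable pool and are entry receptors for botulinum toxin. In WT mice, Sv2c (ENSMUSG00000051111.16, chromosome 13, 96729398 to 96902532, minus strand, NCBIM37) ran from 295 through a median of 468 to 522.5 CPM in NAc, against 48.3, 79.8 and 181 CPM in BLA. Sv2b (ENSMUSG00000053025.13, chromosome 7, 82259783 to 82454148, minus strand) showed the reverse, with 141, 193 and 431 CPM in NAc against 778, 882.5 and 1020 CPM in BLA. Neither gene's ranges overlapped between the regions. Sv2c was 4.87-fold higher in NAc (log2 2.28 ± 0.17, SE, adjusted p = 5.8e-07) and Sv2b was 4.50-fold lower (log2 -2.17 ± 0.14, adjusted p = 1.34e-07), each in 10 of 10 mice. In Lmo4gt/+ mice the log2 fold changes were 2.73 ± 0.19 for Sv2c and -2.07 ± 0.12 for Sv2b. Sv2a, the broadly expressed member and the target of the antiepileptic levetiracetam, differed less, at 474 ± 58.4 CPM in NAc (SD, n = 10) against 587 ± 24.7 CPM in BLA (n = 11) of WT mice (log2 -0.42 ± 0.05, adjusted p = 2.29e-06).

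Levels of different genes can be compared once each is divided by the length of its exons (CPM per kb). On this scale Sv2c made up 44.3% ± 6.53 (SD, n = 9) and 42.7% ± 6.73 (n = 10) of the summed SV2 level in NAc of Lmo4gt/+ and WT mice, against 5.88% ± 2.78 and 6.94% ± 2.70 in BLA of Lmo4gt/+ and WT mice. Sv2b made up 15.8% ± 4.40 and 15.5% ± 5.27 in NAc, against 52.3% ± 2.85 and 51.1% ± 3.51 in BLA. The share of Sv2a hardly moved, at 39.9% and 41.8% in NAc against 41.9% in BLA of each genotype. The family total was 255 ± 31.9 and 245 ± 12.3 CPM per kb in NAc against 296.5 ± 8.46 and 302 ± 12.7 CPM per kb in BLA. The lead of Sv2c over Sv2a in NAc of WT mice was within the spread of the libraries, and with the longest transcript as the length Sv2a led. Shares are descriptions with no test, and shares and totals cover only the listed genes of a family. NAc library 134 held the lowest Sv2c and the highest Sv2b of the WT NAc libraries, and the ranges of both genes stayed apart from BLA with it included.

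The promoter windows of Sv2b and Sv2c are shown because these paralogs differ in opposite directions between the regions, and those of Unc13a and Unc13c, a second such pair described further on, stand with them. They are RefSeq windows on GRCm38.p6, from 250 bases before to 50 after the start, a build other than the mm9 of the counts. Sv2b is at chr7:75309213-75309512, Sv2c at chr13:96132528-96132827, Unc13a at chr8:71671708-71672007 and Unc13c at chr9:73968988-73969287, all on the minus strand and written 5′ to 3′. Sv2b has 4 listed starts, of which the first in the table is shown. Capitals mark matches, on either strand, to a motif searched.
Sv2b: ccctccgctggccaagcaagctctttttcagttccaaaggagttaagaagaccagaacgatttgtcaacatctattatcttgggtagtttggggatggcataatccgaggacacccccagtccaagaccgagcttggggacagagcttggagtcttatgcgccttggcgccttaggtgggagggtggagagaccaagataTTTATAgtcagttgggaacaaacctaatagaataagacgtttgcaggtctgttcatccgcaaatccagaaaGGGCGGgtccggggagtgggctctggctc
Sv2c: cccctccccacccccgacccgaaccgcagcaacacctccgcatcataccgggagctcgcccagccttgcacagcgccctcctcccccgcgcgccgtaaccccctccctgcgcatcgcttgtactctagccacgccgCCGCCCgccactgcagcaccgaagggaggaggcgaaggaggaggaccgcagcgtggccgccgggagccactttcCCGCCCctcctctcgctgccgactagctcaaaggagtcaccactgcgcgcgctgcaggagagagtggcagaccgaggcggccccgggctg
Unc13a: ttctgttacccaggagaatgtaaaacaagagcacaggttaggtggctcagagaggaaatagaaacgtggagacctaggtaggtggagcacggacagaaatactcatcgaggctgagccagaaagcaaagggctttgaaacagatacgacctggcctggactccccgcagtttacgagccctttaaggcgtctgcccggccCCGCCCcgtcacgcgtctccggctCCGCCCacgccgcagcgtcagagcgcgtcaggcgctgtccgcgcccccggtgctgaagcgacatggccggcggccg
Unc13c: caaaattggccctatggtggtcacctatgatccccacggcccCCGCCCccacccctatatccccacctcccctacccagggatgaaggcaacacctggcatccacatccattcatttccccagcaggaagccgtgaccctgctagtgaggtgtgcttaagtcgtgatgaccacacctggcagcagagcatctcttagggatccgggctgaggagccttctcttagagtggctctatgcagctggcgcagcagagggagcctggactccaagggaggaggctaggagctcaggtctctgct

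The letters searched were TATAAA (the TATA box, held by 13.6% of 32851 RefSeq promoter windows of this length), GGGCGG (the GC box, 35.7%), CACGTG (an E-box, 7.15%), TGACGTCA (the cyclic AMP response element, 1.79%) and the NRF1 palindrome (0.971%). Sv2b holds TATAAA on the opposite strand, first base at -50, and a GC box at 21. Sv2c holds GC boxes at -114 and -40, Unc13a at -50 and -26, and Unc13c at -208, counted from the start as 0. Sv2c and Unc13a hold 32 and 27 CpG dinucleotides, while Sv2b and Unc13c hold 10 and 6, against a median of 7 over all windows. The CpG-rich gene of the pair is thus the one higher in NAc for SV2 and the one lower in NAc for Munc13. Of the 42 members, 29 had a window in the table, with a median of 17 CpG, and a GC box stood in 7 of the 8 that were higher in NAc of WT mice and in 15 of the 20 that were lower. Both shares lie above that of all windows, and neither says that a factor binds there.

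**Figure D2:**
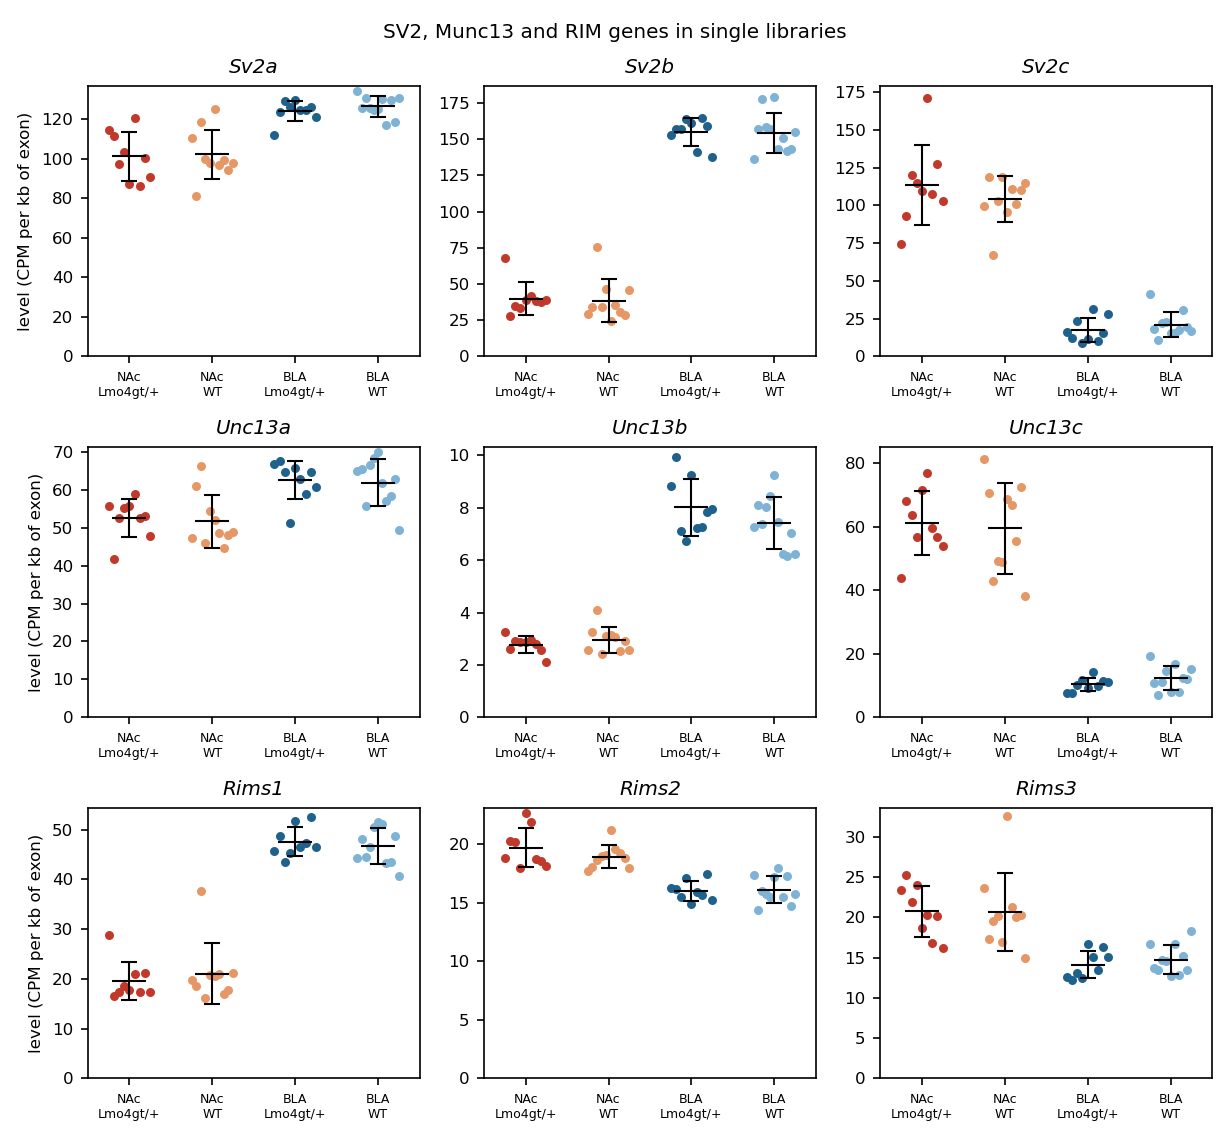
Level in each library, in CPM per kb of exon, of the SV2, Munc13 and RIM genes in NAc and BLA of Lmo4gt/+ and WT mice. Each point is 1 library, with a bar at the mean and error bars of 1 SD (n = 9, 10, 9 and 11 from left to right). Sv2c and Unc13c are high in NAc and Sv2b, Unc13b and Rims1 in BLA, with no overlap between the regions.

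Syp encodes synaptophysin, an abundant vesicle membrane protein that binds synaptobrevin, and Synpr encodes its relative synaptoporin. In WT mice Syp ran from 458 through 567 to 787 CPM in NAc, against 1144, 1220 and 1405 CPM in BLA, with no overlap (log2 -1.25 ± 0.06, adjusted p = 1.09e-10). Synpr went the other way, at 162 ± 35.2 CPM in NAc (n = 10) against 94.99 ± 15.6 CPM in BLA (n = 11), with overlapping ranges (log2 0.67 ± 0.10, adjusted p = 7.2e-05, higher in NAc in 9 of 10 mice). Per kb, Synpr made up 16.3% ± 4.24 and 15.5% ± 4.21 of the pair in NAc of Lmo4gt/+ and WT mice, against 4.75% ± 0.773 and 4.48% ± 0.458 in BLA. Exons of Syp overlap the opposite-strand gene Gm14703 over 16.8% of their length. No source used here says whether the counting took strand into account. Such overlap also exists for Syt12 (17.15%), Syt4 (14.74%), Syn3 (14.11%), Rab3b (9.0%), Doc2b (5.53%) and Syt7 (5.51%). For Rab3a, Sv2b and Syn1 it is 1.3% or less, and for Syt6 and Doc2a it is given below.

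The synapsins coat the vesicle surface and tie the reserve pool together. Syn1 ran from 324 through 359 to 623.5 CPM in NAc of WT mice, against 816, 882 and 933 CPM in BLA (log2 -1.32 ± 0.09, adjusted p = 1.34e-08). Syn2 ran from 385 through 438 to 467 CPM in NAc, against 1227, 1325 and 1421 CPM in BLA (log2 -1.70 ± 0.05, adjusted p = 4.74e-13), the largest difference of the family and the smallest adjusted p of all members in this comparison. Syn3, which is low in adult brain, had 24.6 ± 3.88 CPM in NAc and 23.2 ± 3.52 CPM in BLA of WT mice and did not pass (95% interval of the log2 fold change -0.15 to 0.14). Syn1 led per kb of merged exon in NAc and BLA. It held 59.3% of the family in NAc of each genotype, against 52.2% and 53.2% in BLA of Lmo4gt/+ and WT mice. With the longest transcript as the length, Syn2 led in BLA of WT mice. With CPM not scaled by length, Syn2 led in NAc and BLA of WT mice. The synapsin total per kb was 189 ± 22.8 and 193 ± 27.2 in NAc, against 500.2 ± 34.9 and 499 ± 17.9 in BLA.

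Among the SNARE proteins, Snap25 and Stx1a on the target membrane and Vamp2 on the vesicle were all lower in NAc. Stx1a (ENSMUSG00000007207.10, chromosome 5, 135499352 to 135526970, plus strand), which encodes syntaxin 1A, ran from 24.5 through 30.98 to 99.4 CPM in NAc of WT mice, against 153, 169 and 220.5 CPM in BLA. It was 5.54-fold lower in NAc (log2 -2.47 ± 0.16, adjusted p = 2.24e-07) with no overlap, and the 99.4 CPM is library 134. Without library 134 the NAc mean of WT mice was 30.6 ± 6.85 CPM (n = 9), against 37.5 ± 22.7 CPM with it (n = 10). Snap25 ran from 777 through 831 to 1707 CPM in NAc of WT mice, against 1313, 1430 and 1483 CPM in BLA (log2 -0.78 ± 0.10, adjusted p = 9.54e-06). Its highest NAc value, again library 134, exceeded every BLA library of WT mice, and the next NAc value was 883 CPM.

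Vamp2, the main neuronal synaptobrevin, ran from 660 through 735 to 885 CPM in NAc of WT mice, against 1049, 1105 and 1163 CPM in BLA, with no overlap (log2 -0.66 ± 0.05, adjusted p = 9.45e-09). It made up 97.2% and 96.8% of the pair per kb in NAc of Lmo4gt/+ and WT mice, against 97.3% in BLA of each genotype. Vamp1, the minor form, was at 56.6 ± 27.4 CPM in NAc (n = 10) and 71.5 ± 4.15 CPM in BLA (n = 11) of WT mice. It passed narrowly in WT mice (log2 -0.57 ± 0.20, adjusted p = 0.0322, lower in 7 of 10 mice), and the call was lost in 7 of the 10 fits that left out 1 mouse. The disassembly proteins followed the same direction. Nsf, the ATPase, was at 588 ± 64.8 CPM in NAc against 1298 ± 67.5 CPM in BLA of WT mice (log2 -1.24 ± 0.06, adjusted p = 4.5e-11). Napb, the brain form of its SNAP adaptor, was at 345 ± 54.7 CPM in NAc against 791 ± 37.3 CPM in BLA of WT mice (log2 -1.31 ± 0.06, adjusted p = 6.05e-11). Neither gene's ranges overlapped between the regions.

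The synaptotagmins are membrane proteins with a pair of C2 domains. Syt1 and Syt2 are among the calcium sensors of fast release, Syt7 acts in slow release, and Syt4 and Syt11 carry substitutions that weaken calcium binding. Of the 11 genes measured, 3 were higher in NAc of WT mice (Syt2, Syt6 and Syt10), 6 were lower (Syt1, Syt4, Syt7, Syt11, Syt13 and Syt17), and Syt5 and Syt12 did not pass. Syt17 and Syt6 gave the largest differences of all members in each direction.

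Syt17 (ENSMUSG00000058420.8, chromosome 7, 125525370 to 125587066, minus strand) ran from 2.77 through 6.59 to 14.9 CPM in NAc of WT mice, against 45.7, 74.8 and 88.6 CPM in BLA. It was 11.4-fold lower in NAc (log2 -3.51 ± 0.25, adjusted p = 6.59e-07), and 11.9-fold lower in Lmo4gt/+ mice (log2 -3.57 ± 0.15). The ranges stayed apart in both genotypes. Syt6 ran from 97.0 through 130 to 171 CPM in NAc of WT mice, against 11.6, 14.6 and 33.4 CPM in BLA, and was 7.49-fold higher in NAc (log2 2.90 ± 0.17, adjusted p = 9.57e-08). Its exons overlap the opposite-strand pseudogene Atg4a-ps over 8.73% of their length. Syt10, known in mouse olfactory bulb neurons as a sensor for IGF1 secretion, was at 39.2 ± 9.46 CPM in NAc against 7.99 ± 2.18 CPM in BLA of WT mice (log2 2.20 ± 0.21, adjusted p = 4.84e-06). The BLA libraries high in medium spiny neuron markers, mice 129 and 156, held the highest WT BLA values of Syt6 (33.4 CPM, mouse 129) and Syt10 (11.7 CPM, mouse 156).

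Of the fast sensors, Syt1 ran from 944.5 through 1066 to 1457 CPM in NAc of WT mice, against 1580, 1693 and 1766 CPM in BLA, with no overlap (log2 -0.73 ± 0.06, adjusted p = 2.37e-08). Syt2, the form of brainstem, cerebellar and some interneuron synapses, ran from 37.4 through 48.8 to 93.1 CPM in NAc, against 8.97, 14.1 and 21.4 CPM in BLA, also with no overlap (log2 1.92 ± 0.21, adjusted p = 1.59e-05). On the per-kb scale Syt2 stayed far below Syt1 in NAc of WT mice (8.64 ± 2.97 against 130.3 ± 17.2), so the ratio of the regions is large for a minor form. Syt11 led the family per kb in NAc of WT mice (28.97% ± 1.57, with Syt1 at 23.4% ± 1.92), and Syt1 led in BLA (28.7% ± 1.33), where Syt11 came next. Syt11 itself was lower in NAc (841 ± 44.8 CPM against 924 ± 33.3 CPM in BLA of WT mice, log2 -0.22 ± 0.04, adjusted p = 0.000212). Syt11 led in 9 of 10 WT NAc libraries, but Syt1 led there when the longest transcript was taken as the length.

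Syt7 was at 273 ± 36.3 CPM in NAc against 442.5 ± 31.5 CPM in BLA of WT mice (log2 -0.80 ± 0.06, adjusted p = 1.64e-08). Syt4 was at 225 ± 16.6 CPM in NAc against 299.8 ± 35.1 CPM in BLA (log2 -0.49 ± 0.06, adjusted p = 2.54e-06). Syt13 ran from 38.1 through 57.7 to 149 CPM in NAc, against 145, 159 and 190.3 CPM in BLA (log2 -1.48 ± 0.18, adjusted p = 5.17e-05), the NAc maximum being library 134. Syt12 (33.1 to 52.7 CPM in NAc, 28.5 to 38.7 CPM in BLA of WT mice) missed the threshold in WT mice (log2 0.19 ± 0.08, adjusted p = 0.0588) and passed in Lmo4gt/+ mice (log2 0.39 ± 0.07, adjusted p = 0.000233). Syt5 was at 147 ± 16.1 CPM in NAc and 143 ± 12.8 CPM in BLA of WT mice, with a 95% interval of -0.13 to 0.05 on the log2 scale.

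**Figure D3:**
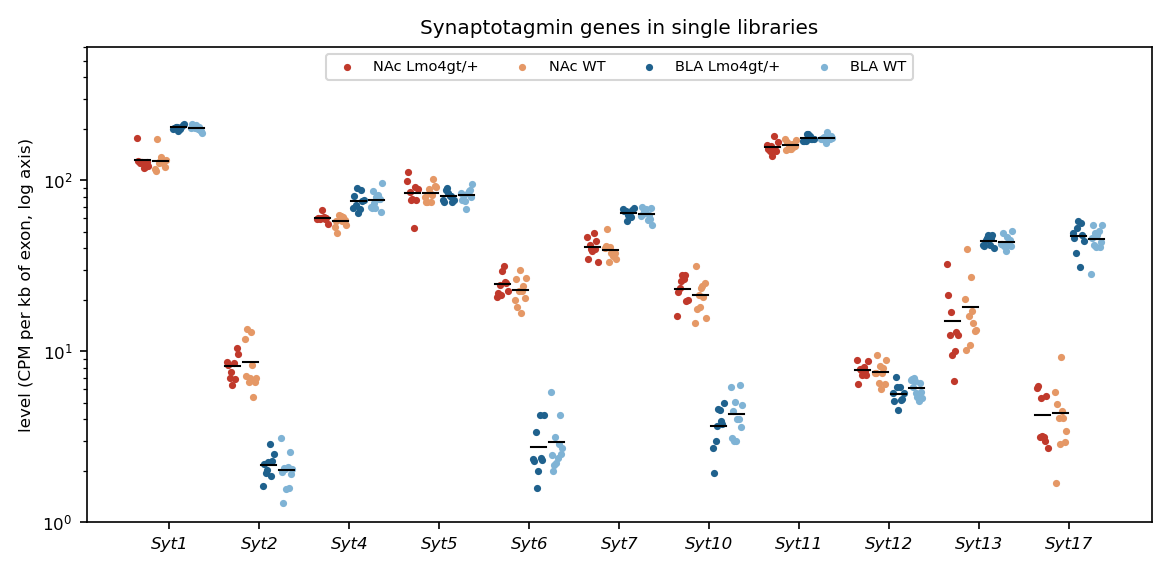
Level in each library of the 11 listed synaptotagmin genes, in CPM per kb of exon on a log axis. The groups are NAc and BLA of Lmo4gt/+ and WT mice. Each point is 1 library and each bar a group mean. Syt2, Syt6 and Syt10 separate upward in NAc and Syt17 downward, while Syt5 lies at the same level in all 4 groups.

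The Doc2 proteins are soluble sensors of low calcium that act in spontaneous and asynchronous release. Doc2a (ENSMUSG00000052301.14, chromosome 7, 133990930 to 133996219, plus strand) ran from 3.24 through 7.52 to 20.9 CPM in NAc of WT mice, against 51.3, 65.3 and 71.0 CPM in BLA. It was 8.74-fold lower in NAc (log2 -3.13 ± 0.21, adjusted p = 3.22e-07) with no overlap. Its exons overlap the opposite-strand gene Ino80e over 33.9% of their length. No source used here says how reads there were counted. The level of Doc2a, and so the lead of Doc2b over it in BLA, may depend on that. Doc2b ran from 88.1 through 145 to 162 CPM in NAc of WT mice, against 97.6, 111.5 and 165 CPM in BLA, and did not pass (log2 0.20 ± 0.09, adjusted p = 0.0661). Without mouse 134, the lowest NAc library, it passed (log2 0.26, adjusted p = 0.00493), as it did in Lmo4gt/+ mice (log2 0.33 ± 0.07, adjusted p = 0.00172). Per kb, Doc2b made up 92.5% ± 6.55 and 91.1% ± 6.63 of the pair in NAc of Lmo4gt/+ and WT mice, against 55.1% ± 3.65 and 53.8% ± 3.38 in BLA. Rph3a, the RAB3 effector rabphilin with related C2 domains, ran from 111 through 134 to 471 CPM in NAc of WT mice, against 404, 475 and 551 CPM in BLA (log2 -1.77 ± 0.21, adjusted p = 3.51e-05). Its ranges overlapped through library 134 alone, since the next NAc value was 168 CPM.

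The Munc13 proteins open syntaxin and are required for vesicle priming. Unc13c (ENSMUSG00000062151.13, chromosome 9, 73328677 to 73781374, minus strand), best known from the cerebellum, ran from 254 through 406 to 540.3 CPM in NAc of WT mice, against 47.5, 80.0 and 129 CPM in BLA. Unc13a (ENSMUSG00000034799.16, chromosome 8, 74150614 to 74195656, minus strand), the main forebrain form, ran from 383 through 418 to 567 CPM in NAc, against 423, 538 and 598 CPM in BLA. The ranges of Unc13c did not overlap, and those of Unc13a did. Unc13c was 4.44-fold higher in NAc (log2 2.15 ± 0.15, adjusted p = 4.33e-07, 10 of 10 mice), and Unc13a was lower (log2 -0.36 ± 0.08, adjusted p = 0.000681, 9 of 10 mice). Unc13b was also lower, at 40.1 ± 6.65 CPM in NAc against 100.2 ± 13.5 CPM in BLA of WT mice (log2 -1.44 ± 0.08, adjusted p = 6.06e-10).

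Per kb, Unc13c made up 52.3% ± 4.90 and 51.6% ± 7.51 of the Munc13 level in NAc of Lmo4gt/+ and WT mice, against 12.9% ± 2.87 and 15.1% ± 4.28 in BLA. Unc13a made up 45.3% ± 4.67 and 45.8% ± 7.12 in NAc, against 77.2% ± 2.21 and 75.8% ± 3.67 in BLA. The share ranges did not overlap between the regions in either genotype. Which of Unc13a and Unc13c led in NAc lay within the spread of the libraries. The family total was higher in NAc, at 116.6 ± 11.6 and 114 ± 14.8 CPM per kb in Lmo4gt/+ and WT mice against 81.0 ± 5.07 and 81.6 ± 8.01 CPM per kb in BLA.

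The RIM proteins are active zone scaffolds that link RAB3, Munc13 and calcium channels, and Rims3 encodes a short form with a single C2 domain. Rims1 had a median of 146 CPM and a highest value of 273 CPM in NAc of WT mice, against 338 and 374.5 CPM in BLA, where its lowest value was 296 CPM, with no overlap (log2 -1.29 ± 0.12, adjusted p = 1.28e-06). Rims3 ran from 119 through 160.5 to 259.6 CPM in NAc, against 101, 116 and 146 CPM in BLA, with overlap (log2 0.36 ± 0.11, adjusted p = 0.0128). Rims2 differed least, at 102 ± 5.36 CPM in NAc against 87.2 ± 6.30 CPM in BLA of WT mice (log2 0.14 ± 0.04, adjusted p = 0.00861). Rims4, a further RIM gene, is not among the 42 and is left out of the family total (77.0 ± 11.7 CPM in NAc against 86.4 ± 8.29 CPM in BLA of WT mice). In NAc the 3 listed RIM genes had nearly equal levels per kb, with Rims1 at 32.5% and 34.4%, Rims2 at 33.1% and 31.6% and Rims3 at 34.5% and 34.01% in Lmo4gt/+ and WT mice. In BLA Rims1 stood above the others, with 61.2% ± 0.996 and 60.1% ± 3.01 in Lmo4gt/+ and WT mice. Without WT mice 129, 134 and 156, in whose punches an earlier look at these data had found markers of another region, Rims3 no longer passed in WT mice (log2 0.34, adjusted p = 0.117).

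The RAB3 GTPases sit on the vesicle and bind RIM and rabphilin. Rab3a, the main neuronal form, was at 218 ± 28.1 CPM in NAc (n = 10) against 329.5 ± 27.1 CPM in BLA (n = 11) of WT mice (log2 -0.68 ± 0.05, adjusted p = 4.3e-09). Rab3c ran from 390.3 through 482.5 to 585.5 CPM in NAc, against 896, 1069 and 1212 CPM in BLA, with no overlap and the largest difference of the family (log2 -1.21 ± 0.06, adjusted p = 6.13e-11). Rab3b, the minor form, was at 25.4 ± 6.31 CPM in NAc and 29.1 ± 4.44 CPM in BLA of WT mice (log2 -0.31 ± 0.12, adjusted p = 0.0446), and the call was lost in 6 of the 10 fits that left out 1 mouse. Per kb, Rab3a led in each group of libraries. It held 59.0% ± 7.54 and 60.9% ± 4.18 in NAc of Lmo4gt/+ and WT mice, against 55.3% ± 2.44 and 53.8% ± 3.06 in BLA. With CPM not scaled by length, Rab3c led in NAc and BLA of WT mice.

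Complexins bind the assembled SNARE complex and both promote and restrain fusion. Cplx2 ran from 1239 through 1418 to 1742 CPM in NAc of WT mice, against 805, 959.5 and 1164 CPM in BLA, with no overlap (log2 0.55 ± 0.07, adjusted p = 3.1e-06). Per kb of merged exon, Cplx2 had the highest mean of all members in NAc, at 318 ± 67.4 and 293 ± 34.2 in Lmo4gt/+ and WT mice. That rank depends on the length taken. Vamp2 has 3809 bases of merged exon but a longest transcript of 2205, while Cplx2 has 4925 by either length. Cplx1 was at 256 ± 72.5 CPM in NAc against 319.6 ± 15.6 CPM in BLA of WT mice (log2 -0.46 ± 0.11, adjusted p = 0.00308). Cplx2 made up 72.8% ± 7.03 and 71.5% ± 4.98 of the family per kb in NAc of Lmo4gt/+ and WT mice, against 57.4% ± 5.44 and 56.2% ± 3.001 in BLA.

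Cplx3, known from ribbon synapses of the mouse retina, was a trace member whose NAc level varied widely between mice. In Lmo4gt/+ mice it ran from 0.0408 through 0.689 to 6.14 CPM in NAc, against 2.97, 3.57 and 5.22 CPM in BLA. In WT mice it ran from 0.120 through 1.03 to 21.8 CPM in NAc, against 2.11, 4.42 and 7.94 CPM in BLA. The NAc libraries of WT mice fell into 6 at 0.120 to 1.53 CPM, with mice 148, 136, 160 and 134 at 5.84, 8.21, 12.0 and 21.8 CPM. The same 4 libraries held the most Slc17a7 of the WT NAc libraries, at 84.4, 141, 190 and 914 CPM, and the other 6 held at most 15.8 CPM. The part of that marker in the level of Cplx3 was not tested. Cplx3 was lower in NAc of Lmo4gt/+ mice (log2 -2.33 ± 0.63, adjusted p = 0.00858) and did not pass in WT mice (log2 -1.10 ± 0.81, adjusted p = 0.273), where DESeq2 called it (log2 -1.65, adjusted p = 0.0289). The difference between the genotypes' region effects did not pass the interaction test (log2 -1.05 ± 1.12, adjusted p = 0.9999 in edgeR).

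Amph and Bin1 encode BAR domain proteins that bend membrane, and amphiphysin acts in vesicle endocytosis. Amph ran from 79.9 through 104 to 142 CPM in NAc of WT mice, against 263.5, 309.8 and 338 CPM in BLA, with no overlap (log2 -1.64 ± 0.06, adjusted p = 5.95e-12). Bin1, which is also expressed in oligodendrocytes, ran from 154 through 179 to 211 CPM in NAc, against 232, 246 and 257 CPM in BLA, again with no overlap (log2 -0.55 ± 0.05, adjusted p = 1.03e-07). Bin1 made up 68.9% ± 4.75 and 69.1% ± 3.39 of the pair per kb in NAc of Lmo4gt/+ and WT mice, against 49.8% ± 2.49 and 51.3% ± 2.13 in BLA. The oligodendrocyte marker sum averaged 6140 ± 1368 CPM in NAc against 1994 ± 231 CPM in BLA of WT mice, and its part in the share of Bin1 was not tested.

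Over the 11 families, 8 had the same leading member per kb in NAc and BLA of WT mice (Syn1, Syp, Vamp2, Rab3a, Cplx2, Rims1, Bin1 and Doc2b), and 3 did not (synaptotagmin, Munc13 and SV2). In 2 families, complexin and Munc13, the mean total per kb was higher in NAc than in BLA, and in the other 9 it was lower. The complexin total was 435 ± 59.3 and 412 ± 58.1 CPM per kb in NAc of Lmo4gt/+ and WT mice, against 351 ± 23.1 and 338.5 ± 25.8 CPM per kb in BLA. In Lmo4gt/+ mice the count was 6, since Rims3 had the highest mean of its family in NAc and Amph in BLA. Several leads lie within the spread: in WT mice Rims1 led in 4 of 10 NAc libraries, Sv2c and Unc13c in 7 of 10 each, and Bin1 in 8 of 11 BLA libraries. With CPM not scaled by length, 8 families had the same leading member, though not the same 8. With the length of the longest transcript, 7 did, and without mice 129, 134 and 156, 7 did, since Rims3 then led in NAc.

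**Figure D4:**
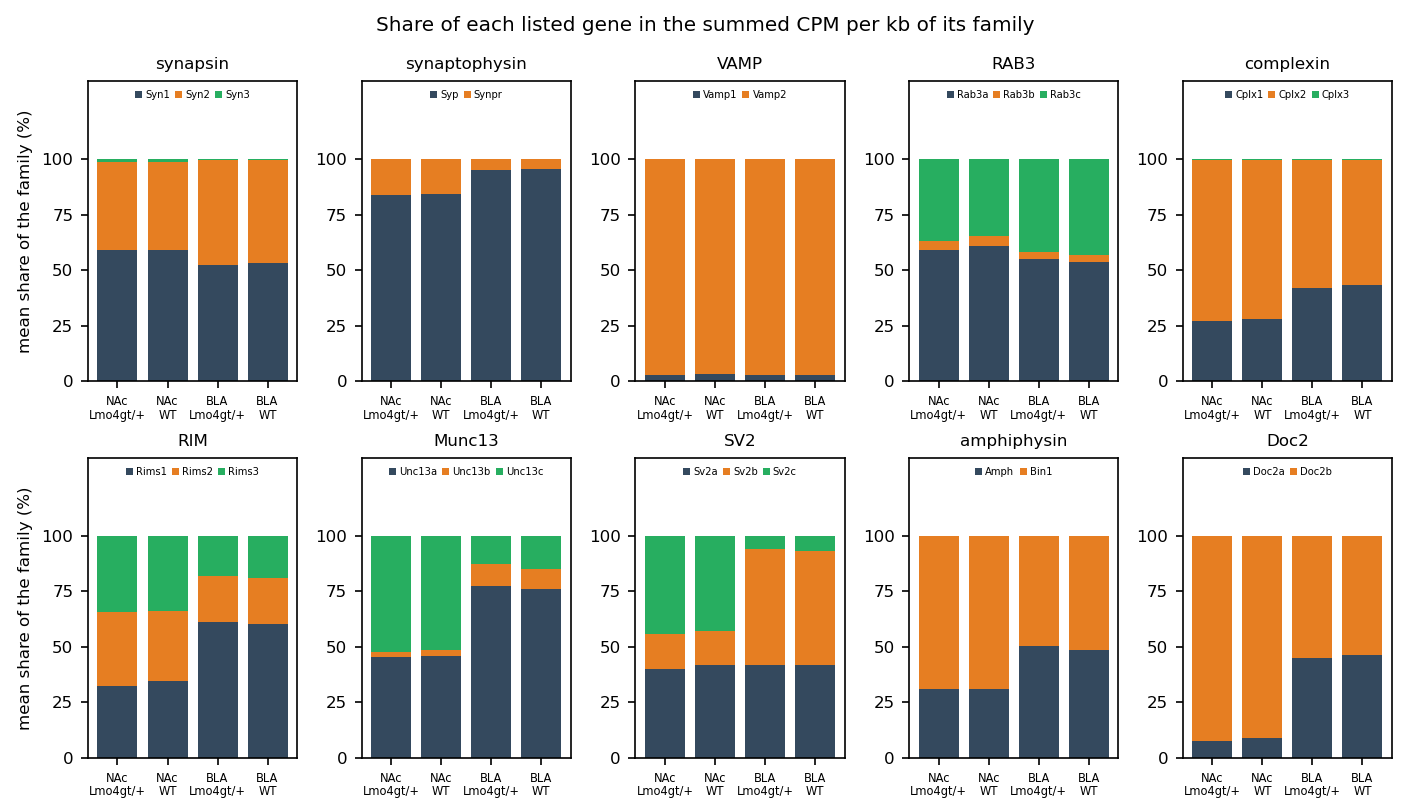
Mean share of each gene in the summed CPM per kb of its family, for 10 families, in NAc and BLA of Lmo4gt/+ and WT mice (n = 9, 10, 9 and 11 libraries from left to right). The SV2, Munc13, RIM and Doc2 bars differ between the regions and look alike between the genotypes, with Sv2c at 44.3% and 42.7% in NAc against 5.88% and 6.94% in BLA.

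The Lmo4 gene trap was compared with WT within each region. No member passed in NAc (0 of 42, where 0.00588% of 16999 genes passed, the single gene being Lmo4) or in BLA (0 of 42, where 0.00585% of 17087 genes passed, again Lmo4 alone). At an unadjusted p under 0.05, 0 members passed in NAc (2.67% of all genes) and 0 in BLA (4.11%), and DESeq2 and limma voom also called 0 members. The log2 fold change of Lmo4gt/+ over WT was positive for 21 members and negative for 21 in NAc, and positive for 19 and negative for 23 in BLA. In NAc the 95% interval excluded a 1.5-fold difference for 36 members and a 2-fold difference for 41, the exception being Cplx3. In BLA it excluded a 1.5-fold difference for 39 members and a 2-fold difference for all 42.

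The members with the smallest p did not pass the edgeR test (edgeR, adjusted p of 0.998 or more for each). In NAc they were Cplx3 (1.496 ± 2.02 CPM in Lmo4gt/+ against 5.09 ± 7.17 CPM in WT mice, log2 -1.79 ± 0.98, and 1.34 ± 2.10 against 3.24 ± 4.39 CPM without libraries 122 and 134), Syt4 (235 ± 11.4 against 225 ± 16.6 CPM, log2 0.09 ± 0.06) and Rims2 (106.5 ± 9.09 against 102 ± 5.36 CPM, log2 0.09 ± 0.06). In BLA they were Rab3c (988 ± 97.7 CPM in Lmo4gt/+ against 1058 ± 101 CPM in WT mice, log2 -0.10 ± 0.06), Syt12 (25.04 to 39.2 against 28.5 to 38.7 CPM, log2 -0.11 ± 0.07) and Bin1 (235 ± 17.7 against 246 ± 6.52 CPM, log2 -0.06 ± 0.04). All these ranges overlapped between the genotypes.

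The region by genotype interaction asks whether the NAc over BLA difference depends on the trap, and 0 of 42 members passed (0% of 18325 genes). At an unadjusted p under 0.05 there were also 0 members (2.96% of all genes). The smallest p were those of Unc13c (log2 0.36 ± 0.18, 95% interval -0.01 to 0.72), Rab3c (0.17 ± 0.09) and Syt12 (0.22 ± 0.11), each with an adjusted p of 0.9999 in edgeR. The interval excluded a 2-fold interaction for 40 members and a 1.5-fold one for 31.

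**Figure D5:**
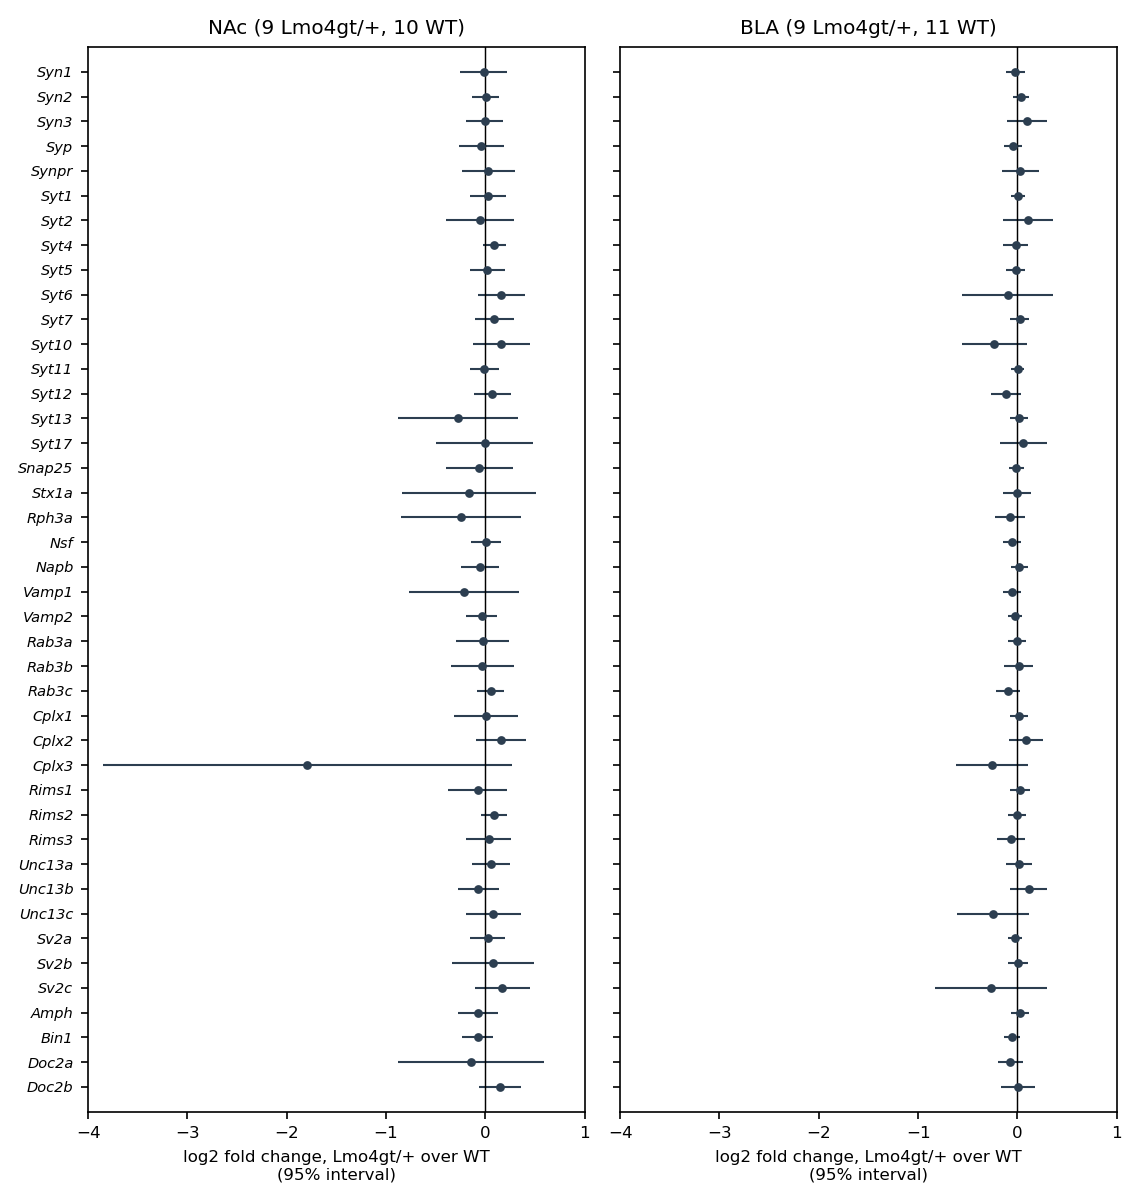
Log2 fold change of Lmo4gt/+ over WT for each of the 42 genes with its 95% interval, in NAc (9 Lmo4gt/+ and 10 WT libraries) and in BLA (9 and 11). All intervals include 0. For 36 genes the standard error is larger in NAc and for 6 in BLA (Sv2c, Syn3, Syt10, Syt4, Syt6 and Unc13c), and the NAc interval of Cplx3 reaches from -3.85 to 0.27.

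Of 67 other genes of the vesicle cycle listed from general knowledge, 66 were found and 63 were tested. In WT mice 13 were higher (31.1% of all genes were) and 39 lower in NAc (28.5%), with a median log2 of -0.31. In Lmo4gt/+ mice 9 were higher (26.2% of all genes) and 37 lower (26.4%), with the same median. By role, 9 of 11 active zone scaffolds, 11 of 16 SNARE partners and priming factors and 8 of 10 other vesicle membrane proteins were lower in NAc of WT mice, while the 12 endocytosis genes split into 6 higher and 6 lower. The 14 other RAB3 and synaptotagmin genes tested, the closest relatives of the members, were mixed, with 2 higher, 5 lower and a median log2 of -0.02. The largest falls in WT mice were those of Cadps2, a dense-core vesicle priming factor (33.2 ± 26.7 CPM in NAc against 179 ± 11.3 CPM in BLA, log2 -2.78 ± 0.27, adjusted p = 1.1e-05), Sh3gl2, which encodes endophilin A1 (log2 -1.78 ± 0.08), and Rph3al, a rabphilin relative without C2 domains (log2 -1.75 ± 0.19). Rph3al was low in each region, at 1.02 ± 0.27 CPM in NAc against 3.21 ± 1.13 CPM in BLA of WT mice. The largest gains were those of Sytl5, a synaptotagmin-like protein (20.5 ± 4.998 CPM in NAc against 6.12 ± 1.22 CPM in BLA, log2 1.63 ± 0.12), Ppfia4, a liprin (log2 1.04 ± 0.07), and Vamp3, cellubrevin (log2 0.62 ± 0.06).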

How the data were processed

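PolyA RNA from micropunches of 300 µm sections was sequenced on a NextSeq, per the labels' protocols. The deposited values are whole-number counts per gene made by the authors with HISAT2 and HTSeq 0.11.1 on mm9, per the submitters' processing notes, which also name MultiQC 1.7 and DESeq2. For the counting, no source used here gives the annotation or the strand setting. Unassigned reads, 24.74% to 38.06% of each library, were left out of library sizes.

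Groups follow the titles. Levels are CPM, and per-kb values divide CPM by merged exon length in NCBIM37. All genes passing filterByExpr (minimum count 10) were fitted with edgeR 4.0.16 (R 4.3.3) using TMM scaling, robust quasi-likelihood F tests and Benjamini-Hochberg adjustment at 0.05. Region and interaction fits had the mouse as a block because same-numbered libraries come from the same animal. Of 19 pairs, 6 had correlated deviations over 0.1 and 5 were most correlated with their own number. The median correlation was 0.041 for the same number and -0.0038 for other numbers, so the values themselves show the pairing only weakly. The code was tested on simulated data. DESeq2 1.42.0, limma 3.58.1, other size factors, no filter, no block and omitted mice were alternatives. ± is SD for levels and shares and SE for log2 values. Intervals at 95% come from the fits. Different mice are the replicates.

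The text accounts for all 42 members, naming each family's leading gene per kb, its largest difference in WT mice and the smallest p for genotype. Members and lists were chosen with earlier results of these data known. Promoter windows were read from RefSeq tables (GRCm38.p6).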

Additional observations from a re-analysis of the deposited data

Results flagged for a closer look

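Of 126 combinations of a member and a group of 9 or 10 libraries, 32 had a single library whose gap to the nearest of the others exceeded Dixon's 95% limit, where chance gives about 1 in 20. The BLA libraries of WT mice were too many for this rule and were not tested. Most of the 32 lie in the NAc libraries with glutamatergic markers, and the part of those markers was not tested.

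NAc library 122 of the Lmo4gt/+ mice, with Slc17a7 at 547 CPM, was the high extreme for 7 members. These were Syn1 (510.6 CPM), Syt1 (1473 CPM), Snap25 (1502 CPM), Stx1a (88.43 CPM), Rph3a (322.1 CPM), Rims1 (209.7 CPM) and Sv2b (387.7 CPM). The BLA library of the same mouse was the low extreme for Sv2a (520.2 CPM).

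NAc library 134 of the WT mice, with Slc17a7 at 914 CPM, was the high extreme for 17 members. Among the SNARE proteins and their partners these were Snap25 (1707 CPM), Stx1a (99.38 CPM), Vamp2 (885.0 CPM), Nsf (753.1 CPM), Napb (479.1 CPM) and Cplx1 (438.4 CPM). Among vesicle proteins and calcium sensors they were Syn1 (623.5 CPM), Syp (787.0 CPM), Syt1 (1457 CPM), Syt7 (362.2 CPM), Sv2b (431.1 CPM), Doc2a (20.94 CPM), Rph3a (471.4 CPM) and Rab3a (288.3 CPM). The others were Rims1 (273.2 CPM), Unc13b (55.13 CPM) and Amph (142.0 CPM). The same library was the low extreme for Sv2c (295.2 CPM) and Doc2b (88.13 CPM).

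In other NAc libraries of Lmo4gt/+ mice, mouse 149 was lowest for Syn2 (298.7 CPM) and highest for Cplx2 (2402 CPM), mouse 147 was highest for Syt4 (259.8 CPM) and mouse 159 for Cplx3 (6.142 CPM). In NAc of WT mice, mouse 139 was highest for Rims3 (259.6 CPM).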

How the results depend on the processing

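No called member changed sign under any alternative run. In WT mice the number of members that differed between the regions was 37, and 33 to 38 under the alternatives, with 20 to 21 past 2-fold. In Lmo4gt/+ mice it was 40 and 21 under each alternative and each omitted mouse. For genotype and for the interaction it was 0 throughout. Without the replicate block, so with the pairing by mouse ignored, 36 members were called in WT mice and 40 in Lmo4gt/+ mice. Vamp1 (adjusted p = 0.0767 in edgeR) and Rab3b (0.0643) then lost their calls and Syt12 gained one (0.0394). With no filter on low counts, 33 were called in WT mice, without Vamp1 (0.0541), Rab3b (0.076), Rims2 (0.0769) and Rims3 (0.0668). The cause was not tested. Without mice 129, 134 and 156, chosen in an earlier look at these data, Rab3b (0.0971) and Rims3 (0.117) lost their calls and Doc2b (0.0231) gained one. Over the 10 fits that left out 1 WT mouse, added after seeing the data, the log2 fold change of Vamp1 ran from -0.69 to -0.49 with 3 calls and that of Rab3b from -0.38 to -0.21 with 4. Syt12 and Doc2b each gained a call in 2 of them, and all other calls held. Cplx3, a trace gene in most NAc libraries, is the member with the widest interval for genotype in NAc.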

Other observations

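The members varied more between mice in NAc than in BLA. The coefficient of variation of CPM had a median over the members of 16.4% in NAc and 8.96% in BLA of Lmo4gt/+ mice, and of 16.2% in NAc and 8.93% in BLA of WT mice. NAc library 149 of the Lmo4gt/+ mice was the lowest of its group for 15 members and the highest for 9. It also had the fewest gene counts of all libraries (21255934) and the largest part of unassigned reads (38.06%). The part of these in its extreme values was not tested. The choroid plexus gene list summed to 610 CPM in the BLA library of Lmo4gt/+ mouse 127 and 168 CPM in that of WT mouse 151, against group medians of 6.09 and 9.62 CPM.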
